A study of Mus musculus with 6 samples.

Results

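The major urinary protein (Mup) genes encode small carrier proteins that the liver of male mice secretes in large amounts. Mup1, Mup9, Mup10, Mup11, Mup15, Mup16, Mup17, Mup18 and Mup22 were taken as the rows of the deposited count table whose Ensembl identifier maps to these symbols. They were 9 of the 12027 rows, and 11 other rows carried a symbol that begins with Mup. RNA-seq libraries came from the whole liver of C57BL/6 males aged 8 weeks that had undergone PHX (partial hepatectomy), in which part of the liver is cut away and the remainder grows back. The knockouts were restricted to hepatocytes by a method not given in the sources used here. OGT-KO livers (genotype OGT-/y) lacked the enzyme that puts O-GlcNAc, a small sugar, onto proteins and were compared with OGT control livers (OGTfl/y), both at day 28. OGA-KO livers (OGA-/-) lacked the enzyme that removes this sugar and were compared with OGA control livers (OGAfl/fl) at day 14 and day 28. Each of the 6 groups was 1 library made from pooled RNA of 3 mice, so no group had a replicate and differences between mice were averaged away. Ranges given after a ratio are 95% exact counting intervals.

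Mup proteins belong to the lipocalins, which fold into a barrel around a greasy pocket. Hepatocytes release them into the blood, the kidney passes them into urine, and there they hold volatile pheromones and release them slowly. The genes lie side by side in a cluster on chromosome 4 in which many copies arose by recent duplication. Their transcription in male liver is known to follow the pulses of growth hormone, acting through its receptor, JAK2 and STAT5, and to differ between the sexes.

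The copies are so alike that reads are hard to assign to 1 gene. Over 36 pairs, the coding sequences of the 9 members in the GENCODE M21 annotation were 98.5% to 99.8% identical (median 99.1%), and 0 pairs were the same throughout. After alignment to Mup17, 12 of its 540 coding positions varied among the members. The 60-base stretch with the most variation, bases 98 to 157 of the Mup17 coding sequence, held 3 of them and is printed to show how few letters differ. Capitals mark bases that differ from Mup17. Mup1 stands also for Mup9, Mup10, Mup11, Mup15, Mup18 and Mup22, which have the same letters here, and Mup20 and Mup3 are less alike relatives from the same cluster.
Mup17: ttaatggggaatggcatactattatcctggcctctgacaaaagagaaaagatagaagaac
Mup16: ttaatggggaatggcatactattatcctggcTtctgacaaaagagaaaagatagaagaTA
Mup1: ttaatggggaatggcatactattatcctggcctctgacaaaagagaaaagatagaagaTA
Mup20: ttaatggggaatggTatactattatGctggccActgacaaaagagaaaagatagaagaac
Mup3: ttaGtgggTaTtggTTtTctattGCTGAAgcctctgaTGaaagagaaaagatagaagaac
Mup1 differed from Mup17 at 2 and Mup16 at 3 of the 60 bases, while Mup20 differed at 3 and Mup3 at 14. Of all stretches of 50 bases in the member transcripts, the share found in no other gene's transcript was 0% for Mup15 and Mup22, 5.24% for Mup1 and at most 21.9%, for Mup17. With stretches of 100 bases it was 0% for Mup22 and 40.6% for Mup17. By contrast 84.4% of the 50-base stretches of Mup3 and 95.7% of those of Mup6 were unique. How the authors' counting treated reads that match several genes is not given in the sources used here, so every single-gene count below is uncertain and sums are given beside them.

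Upstream sequences were alike too. The RefSeq promoter table (GRCm38.p6) held 6 of the 9 members, whose promoters were 74.6% to 97.6% identical over 15 pairs (median 89.2%). Pairs with Mup11 were 74.6% to 82.1% identical and all other pairs 85.8% to 97.6%. The window of Mup11 ends further upstream in the shared sequence than those of the other members, so its lower values partly reflect the annotated start. Those of Mup17 and Mup18, the members with the largest and the smallest measured fold difference in OGT-KO, are shown with that of Mup3, which had a smaller one. Each is the 250 bases before the annotated start, read 5′ to 3′, and capitals mark the letters TATATAA.
Mup17, chr4:61595833-61596082, minus strand: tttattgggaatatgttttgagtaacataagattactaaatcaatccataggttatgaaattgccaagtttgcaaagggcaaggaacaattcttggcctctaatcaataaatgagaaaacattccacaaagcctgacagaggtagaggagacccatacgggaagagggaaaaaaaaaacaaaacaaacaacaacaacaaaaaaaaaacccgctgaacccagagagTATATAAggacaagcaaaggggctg
Mup18, chr4:61674095-61674344, minus strand: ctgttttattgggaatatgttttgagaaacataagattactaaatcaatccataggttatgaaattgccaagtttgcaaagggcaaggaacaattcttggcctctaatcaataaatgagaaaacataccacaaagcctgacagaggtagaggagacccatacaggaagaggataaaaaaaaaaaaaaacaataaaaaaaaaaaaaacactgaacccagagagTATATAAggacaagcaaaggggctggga
Mup3, chr4:62087318-62087567, minus strand: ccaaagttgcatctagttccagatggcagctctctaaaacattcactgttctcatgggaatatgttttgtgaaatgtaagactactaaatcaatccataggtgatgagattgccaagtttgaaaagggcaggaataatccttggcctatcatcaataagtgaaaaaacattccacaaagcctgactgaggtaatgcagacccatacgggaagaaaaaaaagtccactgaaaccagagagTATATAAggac
TATATAA, searched on both strands, was present in 5 of the 6 member promoters and in 11 of 14 Mup promoters, against 3.04% of all 32851 promoters in the table. In Mup17 it began 25 bases before the start, in Mup18 28 bases and in Mup3 11 bases, distances that depend on the annotated start. The windows of Mup7, Mup11 and Mup14, which held no match, end before or within the matching place, so its absence cannot be read there. The letters TTCNNNGAA, the consensus of STAT5 sites, were in 0 of the 6 and in 7.02% of all promoters. TTGCNNAA, a C/EBP form, was in 0 of 6 and in 9.56% of all, and CCAAT was in 4 of 6 and in 33.8% of all. The windows of Mup9 and Mup10, the members without CCAAT, begin within or just after its place in the other members, so its absence cannot be read either. These windows are short, and a match or its absence is a description of letters only.

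Library totals ranged from 20433100 to 29327722 counts, and 3 counts, the limit that a listed 0 allows, came to 0.102 to 0.147 CPM of these totals. Oga, listed under its older symbol Mgea5, stood at 10.4 CPM in OGA-KO against 62.2 CPM in OGA control at day 14, and at 12.8 CPM in OGA-KO against 67.2 CPM in OGA control at day 28. CPM is counts per 1000000 of the library size, from here on the TMM effective size. Ogt stood at 43.2 CPM in OGT-KO against 58 CPM in OGT control, a log2 ratio of -0.43 (-0.54 to -0.31). The counts cover whole genes, the deleted exons are not given in the sources used here, and so the Ogt count is only a loose check of that label. All 6 hepatocyte markers were present in every library. Their summed level was 51875 CPM in OGT-KO and 76265 CPM in OGT control, and 83969 to 91695 CPM in the OGA libraries.

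The members held 32 counts together in OGT-KO, against 6854 in OGT control. They held 27868 in OGA-KO against 49969 in OGA control at day 14, and 32876 in OGA-KO against 57657 in OGA control at day 28. The OGT-KO library thus stood apart from the other 5, and the OGT control lay below all 4 OGA libraries.

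Mup17 had 1 count in OGT-KO against 941 in OGT control, 11072 in OGA-KO against 23219 in OGA control at day 14, and 10674 in OGA-KO against 18281 in OGA control at day 28. Mup22 had 8 counts in OGT-KO against 2462 in OGT control, 5532 in OGA-KO against 5373 in OGA control at day 14, and 4929 in OGA-KO against 6143 in OGA control at day 28. Mup11 had 7 counts in OGT-KO against 976 in OGT control, 3782 in OGA-KO against 4217 in OGA control at day 14, and 6222 in OGA-KO against 10972 in OGA control at day 28. These 3 members were nearly absent from OGT-KO, while among the OGA libraries Mup22 varied little. Mup15 had 3 counts in OGT-KO against 1664 in OGT control, 1736 in OGA-KO against 2692 in OGA control at day 14, and 3215 in OGA-KO against 9027 in OGA control at day 28. Mup1 had 6 counts in OGT-KO against 269 in OGT control, 1580 in OGA-KO against 2598 in OGA control at day 14, and 2317 in OGA-KO against 6483 in OGA control at day 28. Both were highest in the OGA control of day 28, by a wide margin over every other library. Mup9 had 0 counts in OGT-KO against 43 in OGT control, 3112 in OGA-KO against 9497 in OGA control at day 14, and 3960 in OGA-KO against 3823 in OGA control at day 28. Mup16 had 0 counts in OGT-KO against 187 in OGT control, 710 in OGA-KO against 1538 in OGA control at day 14, and 1018 in OGA-KO against 1943 in OGA control at day 28. Mup9 was highest in the OGA control of day 14, unlike Mup1 and Mup15. Mup18 had 7 counts in OGT-KO against 312 in OGT control, 290 in OGA-KO against 718 in OGA control at day 14, and 471 in OGA-KO against 932 in OGA control at day 28. Mup10 had 0 counts in both OGT libraries, 54 in OGA-KO against 117 in OGA control at day 14, and 70 in OGA-KO against 53 in OGA control at day 28. Mup10 was thus the weakest member in all 4 OGA libraries, and Mup18 was as high in OGT control as in OGA-KO of day 14 in raw counts.

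**Figure D1:**
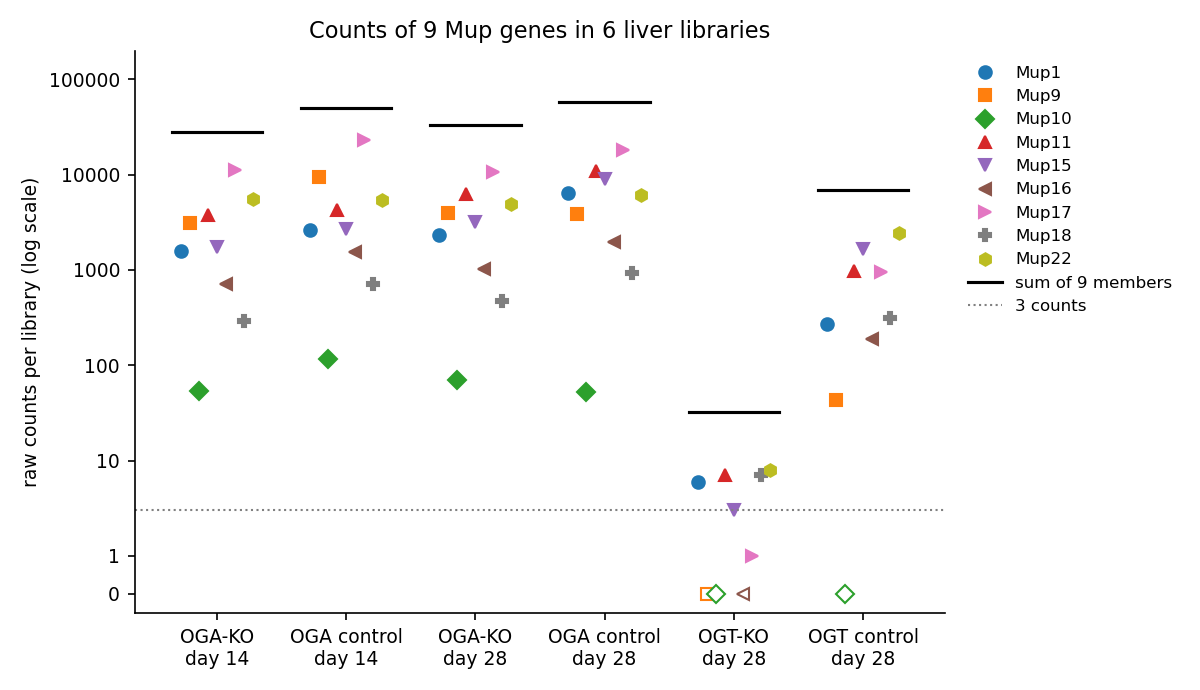
Raw counts (log axis, 0 drawn as open symbols at the bottom) of the 9 Mup genes in each of the 6 libraries, with the knockout left of its control; black bars are the sum of the 9 genes and the dotted line marks 3 counts. In OGT-KO every gene had 8 counts or fewer, and the sum was 32 against 6854 in OGT control.

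Levels can be compared between genes per kilobase of transcript, the member transcripts being 861 to 930 bases long. On this scale Mup17 led in all 4 OGA libraries, with 442 CPM per kilobase in OGA-KO against 1022 in OGA control at day 14, and 466 in OGA-KO against 753 in OGA control at day 28. Mup10 was lowest in each, with 2.16 in OGA-KO against 5.15 in OGA control at day 14 and 3.05 in OGA-KO against 2.18 in OGA control at day 28. In OGT control the lead passed to Mup22, at 124 CPM per kilobase, followed by Mup15 at 77.9, Mup11 at 45.5 and Mup17 at 44. Mup11 and Mup17 overlapped there in their counting intervals, as did Mup18 and Mup1, at 14.5 and 12.6. Among the OGA libraries the neighbours whose intervals overlapped were Mup15 and Mup1 in both day 14 libraries and Mup22 and Mup1 in the OGA control of day 28. In OGT-KO the highest level was 0.333 CPM per kilobase, for Mup22, and all neighbouring intervals overlapped, so no order could be read.

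In OGT-KO, transcripts of the 9 members were close to undetectable, while some other Mup rows kept more counts, as given below. The summed level of the members was 1.15 CPM in OGT-KO and 297 CPM in OGT control, 259-fold lower in the knockout (183 to 379). In a fit over all genes (edgeR's quasi-likelihood test with Benjamini-Hochberg adjustment, threshold 0.05), 7 of the 9 members fell and 0 rose, in a comparison in which 26.6% of all 12026 genes tested fell and 26.1% rose. With library totals in place of TMM the split of all genes was 15.5% lower and 44.4% higher, the median of all genes standing at 0.36 on the log2 scale, and the same number of members fell. The 7 were Mup1, Mup11, Mup15, Mup16, Mup17, Mup18 and Mup22. Because each group is 1 library, the fit takes its spread from the OGA libraries (1 residual degree of freedom) and assumes that the OGT libraries vary like them. In bulk tissue, fewer hepatocytes and less RNA per hepatocyte cannot be told apart.

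Mup22 fell 372-fold (189 to 863), with an edgeR adjusted p of 8.35e-05, the smallest among the members. Mup11 was 169-fold lower (81.5 to 421, edgeR adjusted p = 0.000138), and Mup15 was 671-fold lower (229 to 3257, edgeR adjusted p = 0.000169). Mup17, with a single count in OGT-KO, had a ratio of 1138-fold (204 to 45006, edgeR adjusted p = 0.000153). These members differed by far more than counting error. Mup1 was 54.2-fold lower (24.6 to 149, edgeR adjusted p = 0.000478) and Mup18 53.9-fold lower (25.9 to 135, edgeR adjusted p = 0.000369). Mup16, at 0 in OGT-KO, was 75.4-fold lower with OGT-KO set to a floor of 3 counts (edgeR adjusted p = 0.000327). By its counting interval the log2 ratio was below -5.92. Mup9 was also at 0 and 17.3-fold lower by the same floor (log2 ratio below -3.76 by its counting interval). With 43 counts in OGT control it did not pass the test (edgeR adjusted p = 0.1), against 0.0754 without the day term. With any 1 OGA library left out as well as the day term, which cannot be fitted on the remaining libraries, it passed (edgeR adjusted p = 0.00533 to 0.0409). Mup10 had 0 counts in both libraries and gave no fold. The median log2 ratio of the 8 members with counts was -6.86, or -6.62 with the members at 0 set to their bound, against 0.00 over all genes. Without the line term, which lets the floxed controls differ, the calls of Mup1 (edgeR adjusted p = 0.0729) and Mup16 (edgeR adjusted p = 0.0504) were lost, and 11.8% of all genes fell. That fit set OGT-KO against the controls of both lines together, and the members were higher in OGA control than in OGT control. The fitted log2 ratios were larger in size there, -9.26 against -5.73 in the main fit for Mup1. For Mup16 they were -13.23 against -10.70, sizes that depend on the prior count because Mup16 was at 0 in OGT-KO.

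**Figure D2:**
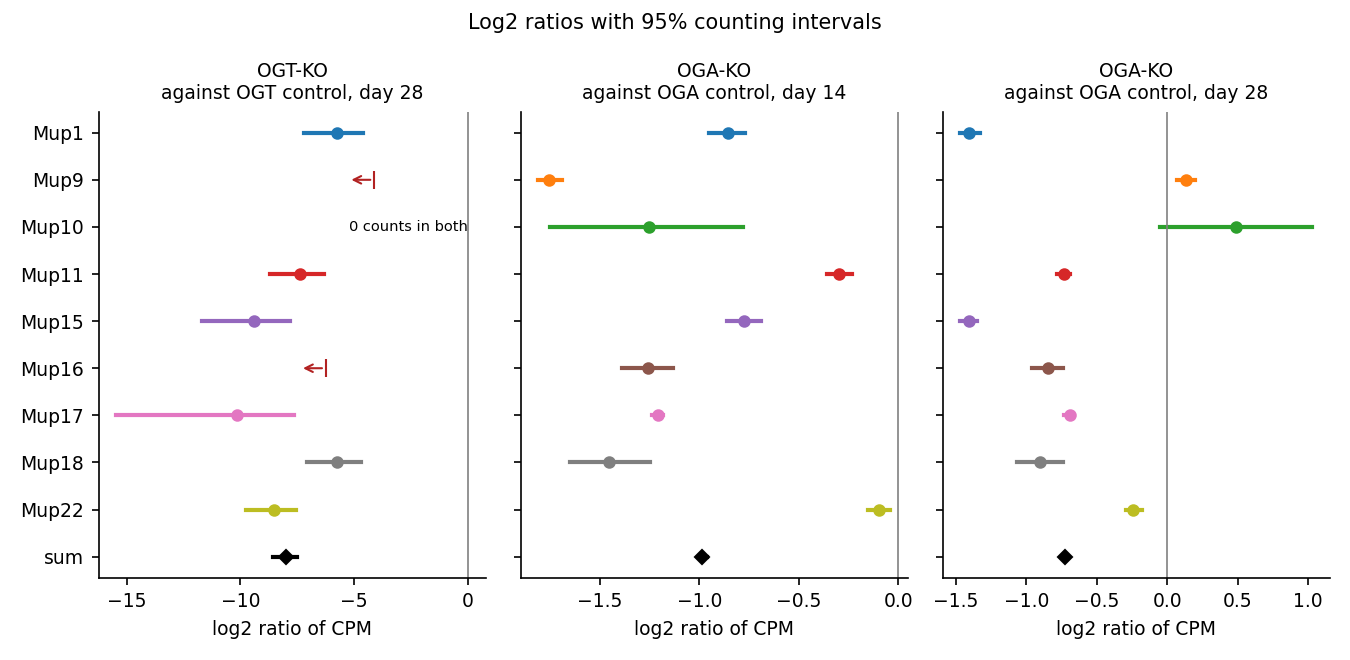
Log2 ratio of CPM, knockout over control, for each Mup gene and for the sum of the 9 genes (diamond), in OGT-KO at day 28 and in OGA-KO at day 14 and day 28, with 95% counting intervals as lines; each panel has its own axis, arrows start at the bound for genes at 0 in OGT-KO, and the grey line marks no difference. The sum was 259-fold lower in OGT-KO, with log2 ratios of -0.98 and -0.73 in OGA-KO at day 14 and day 28.

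Markers of most other liver cell types were higher in the same library, in which 26.1% of all genes rose and 26.6% fell. The 6 stellate cell and matrix markers summed to 2219 CPM in OGT-KO and 244 CPM in OGT control, and 6 of 6 rose. The 5 cholangiocyte markers with a row summed to 386 CPM in OGT-KO and 62.5 CPM in OGT control, and 5 of 5 rose. The Kupffer cell markers summed to 590 CPM in OGT-KO and 225 CPM in OGT control, and 5 of 6 rose. The endothelial cell markers summed to 130 CPM in OGT-KO and 148 CPM in OGT control, where 1 of 6 rose and 3 fell. With library totals 3 rose and 1 fell, where 44.4% of all genes rose and 15.5% fell. None of the markers of these lists was at 0 in either library, and their part in the Mup difference was not tested. Set against Alb, the serum albumin gene of the same cells, the members had 0.029 counts per 1000 Alb counts in OGT-KO and 5.28 in OGT control. Alb itself was at 39502 CPM in OGT-KO and 56283 CPM in OGT control (log2 ratio -0.51, edgeR adjusted p = 0.00936).

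The other Mup rows fell as well, but those that differ most in sequence were reduced less. Of the 11 other rows 10 fell and 0 rose, where 26.6% of all genes fell and 26.1% rose. Their median log2 ratio was -4.31, or -3.94 with rows at 0 set to their bound. Without the line term 4 of the 11 fell, and the calls of Mup2, Mup3, Mup7, Mup12, Mup13 and Mup19 were lost (edgeR adjusted p = 0.0505 to 0.0953). In that fit, which set OGT-KO against the controls of both lines together, 11.8% of all genes fell. The fitted log2 ratios of these rows were larger in size there than in the main fit, for Mup3 -6.36 against -3.94. The call of Mup13, with 0 counts in OGT-KO and 5 in OGT control (edgeR adjusted p = 0.0487), was also lost with DESeq2 size factors (edgeR adjusted p = 0.0511), with library totals (edgeR adjusted p = 0.0572) and with DESeq2 (adjusted p = 0.169). It was lost too without either OGA-KO library and the day term (edgeR adjusted p = 0.0551 and 0.0537), against 0.0433 without the day term alone. The 7 whose coding sequence averages 98.7% to 99.4% identity to the members (Mup2, Mup7, Mup8, Mup12, Mup13, Mup14 and Mup19) summed to 80 counts in OGT-KO and 4348 in OGT control, 65.7-fold lower (52.7 to 83.1). Together with the members they make 16 near-identical rows with 112 counts in OGT-KO and 11202 in OGT control, 121-fold lower (100 to 147), a value unaffected by how counted reads were shared out among these copies. The 4 less alike rows (Mup3, Mup6, Mup20 and Mup21, 83.2% to 90.9% identity) summed to 5052 counts in OGT-KO and 40384 in OGT control, 9.67-fold lower (9.39 to 9.96). This split at 98% was chosen after the values were seen and was not tested.

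Mup3, the Mup gene with the highest level per kilobase in all 4 OGA libraries, was at 62.9 CPM in OGT-KO and 968 CPM in OGT control, 15.4-fold lower (14.6 to 16.2, edgeR adjusted p = 0.000192), a call that was lost when the line term was dropped (edgeR adjusted p = 0.0592). Mup20, which encodes darcin, a male scent protein that female mice are attracted to, was at 102 CPM in OGT-KO and 665 CPM in OGT control, 6.54-fold lower (6.28 to 6.81, edgeR adjusted p = 0.000214). Mup21 was at 15 CPM in OGT-KO and 116 CPM in OGT control, 7.75-fold lower (6.99 to 8.61, edgeR adjusted p = 0.000773). With these 3, most of the Mup counts left in OGT-KO lay outside the members, 5132 of 5164. Most lay outside them in OGT control too (44732 of 51586) and in every OGA library, such as OGA control of day 28 (390855 of 448512). Mup6 was low in both, with 39 counts in OGT-KO and 24 in OGT control (log2 ratio 0.40, -0.34 to 1.22, edgeR adjusted p = 0.52). Over all 20 Mup rows, OGT-KO held 185 CPM and OGT control 2235 CPM, 12.1-fold lower in OGT-KO (11.7 to 12.4).

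**Figure D3:**
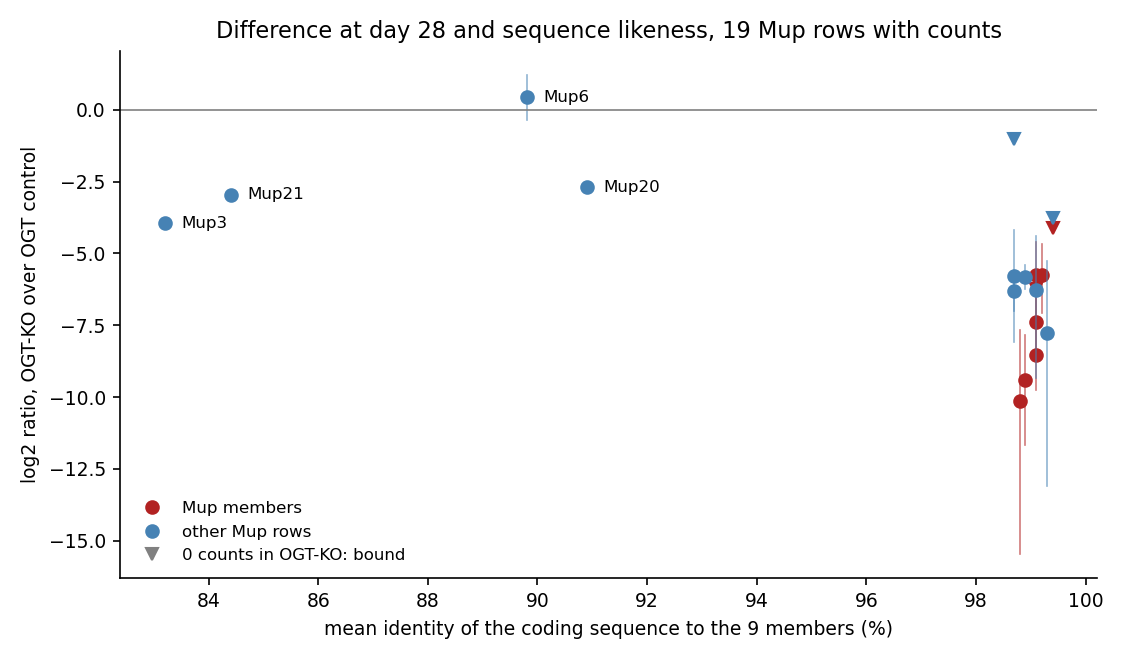
Log2 ratio of OGT-KO over OGT control (with 95% counting intervals as lines, triangles for bounds of rows at 0 in OGT-KO) against the mean identity of the coding sequence to the 9 members, in percent, for each Mup row with counts in either library; red points are members and blue points the other rows. Mup3, Mup6, Mup20 and Mup21 lie apart at 83.2% to 90.9% identity, and the members with counts in OGT-KO all lie below them.

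In OGA-KO the members were lower than in OGA control at both days in sum, but no member passed the test. The summed level was 1031 CPM in OGA-KO and 2039 CPM in OGA control at day 14, a log2 ratio of -0.98, or 1.98-fold lower in OGA-KO (1.95 to 2.01). At day 28 it was 1329 CPM in OGA-KO and 2203 CPM in OGA control, a log2 ratio of -0.73 (-0.75 to -0.71). In the edgeR fit, which gives 1 OGA-KO effect over both days, 0 of 9 members passed at an adjusted p of 0.05, with 6 of 9 at an unadjusted p under 0.05. The edgeR test called 0.00832% of all genes lower and 0.0249% higher. The DESeq2 Wald test called 5 of 9, all lower, and left 1 adjusted p undefined, where it called 0.154% lower and 0.351% higher of the 7130 genes to which it gave an adjusted p. The lowest edgeR adjusted p among the members was 0.121, for Mup16. Without the day term alone 0 of 9 passed (edgeR adjusted p = 0.369 for Mup16, 0.303 for Mup17 and 0.383 for Mup18). Without the day term and OGA-KO of day 14, Mup16, Mup17 and Mup18 passed (edgeR adjusted p = 0.0268, 0.0299 and 0.0421). Without the day term and OGA-KO of day 28, Mup16 and Mup18 passed (edgeR adjusted p = 0.0188 and 0.0206).

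At day 14 all 9 members were lower in OGA-KO, with a median log2 ratio of -1.21 against 0.00 for all genes. By a rule of size, at least a 2-fold difference with 1 CPM or more in the higher library, 5 of 9 were lower and 0 higher (0.305% and 0.534% of genes were), namely Mup9, Mup10, Mup16, Mup17 and Mup18. Mup9 had the largest difference, at 115 CPM in OGA-KO and 388 CPM in OGA control, a log2 ratio of -1.75 (-1.81 to -1.69). Mup17 was at 410 CPM in OGA-KO and 948 CPM in OGA control (log2 ratio -1.21, -1.24 to -1.18). Mup22 was at 205 CPM in OGA-KO and 219 CPM in OGA control (log2 ratio -0.10, -0.15 to -0.04), the smallest difference of the 9. The near-identical copies therefore did not move by one common factor in these counts.

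At day 28 only 7 of the 9 were lower in OGA-KO, with a median log2 ratio of -0.74, and 2 of 9 met the rule of size on the lower side and 0 on the higher (0.869% and 1.7% of genes did). Mup15 was at 130 CPM in OGA-KO and 345 CPM in OGA control (log2 ratio -1.41, -1.47 to -1.35). Mup1 was at 93.7 CPM in OGA-KO and 248 CPM in OGA control (log2 ratio -1.40, -1.47 to -1.33). These were not the 2-fold members of day 14. Mup9 was at 160 CPM in OGA-KO and 146 CPM in OGA control (log2 ratio 0.13, 0.07 to 0.20), opposite in direction to day 14. Mup10, with 70 counts in OGA-KO and 53 in OGA control, had a log2 ratio of 0.47 (-0.05 to 1.03), an interval that includes no difference. Among the other Mup rows, Mup3 had log2 ratios of -0.23 at day 14 and -0.73 at day 28, and Mup20 of 0.27 and -0.06.

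Other markers moved with the day 28 pair. The 6 pancreatic acinar cell markers summed to 157 CPM in OGA-KO of day 28 and 26.8 CPM in its control, with 0 of 6 at 0 counts in OGA-KO and 5 of 6 in the control. Of the 12 clock genes with a row, 6 were 2-fold higher and 3 2-fold lower in OGA-KO at day 28 (1.7% and 0.869% of all genes were). Their part in the Mup difference was not tested. Hepatocyte markers summed to 90013 CPM in OGA-KO and 88353 CPM in OGA control at day 28. At day 14 they summed to 91695 CPM in OGA-KO and 83969 CPM in OGA control. Per 1000 Alb counts the members had 16.5 counts in OGA-KO against 36.5 in OGA control at day 14, and 22.1 in OGA-KO against 36.9 in OGA control at day 28.

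The 2 knockouts differed in size of effect when the difference itself was tested. In the contrast of the OGT-KO effect minus the OGA-KO effect, 7 of 9 members were past the threshold, all on the lower side, where 22.7% of all genes were lower. The difference was largest for Mup16, with a log2 value of -9.65 (edgeR adjusted p = 0.00115), a size that depends on the prior count because Mup16 was at 0 in OGT-KO. For Mup22 it was -8.35 (edgeR adjusted p = 0.000159) and for Mup18 -4.56 (edgeR adjusted p = 0.00165), the smallest of the 7. Mup9 (log2 value -7.77, edgeR adjusted p = 0.18) and Mup10 (log2 value 0.43, edgeR adjusted p = 1) did not pass. Without the line term 4 of 9 passed, where 11.4% of all genes were lower and 11.6% higher.

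The controls of both lines were not alike. At day 28 the members summed to 297 CPM in OGT control and 2203 CPM in OGA control, 7.42-fold lower in OGT control (7.24 to 7.61). All 9 members met the 2-fold rule on the lower side, as did 5.72% of all genes, and 4.72% met it on the higher side. Mup9 was at 1.86 CPM in OGT control and 146 CPM in OGA control, 78.4-fold lower (58.1 to 109). Mup22, the member that differed least, was at 107 CPM in OGT control and 235 CPM in OGA control, 2.2-fold lower (2.1 to 2.31). Mup10, at 0 in OGT control, was 15.6-fold lower with OGT control set to the floor used above for members at 0. By its counting interval the log2 ratio was below -3.61. Mup10 had 0 counts in OGT-KO as well and held a row only through its OGA counts. Its direction here therefore follows from which rows were kept. The OGT-KO differences above are therefore measured from a control in which Mup transcripts were already scarce compared with the other line. Other genes differed between these controls too. Of the 12 clock genes with a row, 5 were 2-fold higher and 2 2-fold lower in OGT control. Of 19 genes known to be higher in male liver, 6 were 2-fold lower in OGT control and 1 2-fold higher. Their part in the Mup difference was not tested. Genotype of the control, line and pool cannot be told apart here, and no test was made.

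Between days the sum differed little in OGA control, at 2203 CPM on day 28 and 2039 CPM on day 14 (log2 ratio 0.11, 0.09 to 0.13). Single members moved in opposite directions under this sum. Mup15 was at 345 CPM on day 28 and 110 CPM on day 14 (log2 ratio 1.65), Mup11 at 419 CPM on day 28 and 172 CPM on day 14 (log2 ratio 1.28), and Mup1 at 248 CPM on day 28 and 106 CPM on day 14 (log2 ratio 1.22). Mup9 was at 146 CPM on day 28 and 388 CPM on day 14 (log2 ratio -1.41), and Mup10 at 2.02 CPM on day 28 and 4.77 CPM on day 14 (log2 ratio -1.21). By the rule of size 3 of 9 were higher (0.519% of genes) and 2 of 9 lower (0.408% of genes) on day 28. In OGA-KO the sum was 1329 CPM on day 28 and 1031 CPM on day 14 (log2 ratio 0.37, 0.34 to 0.39). There 8 of 9 were higher on day 28, 1 of them 2-fold, Mup15 at 130 CPM on day 28 and 64.2 CPM on day 14 (log2 ratio 1.02), and 0 were 2-fold lower, where 0.97% of genes were 2-fold higher and 0.346% lower. Single members thus differed between the OGA control pools by up to 1.65 log2 units, and between OGA-KO and OGA control by up to 1.75.

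The make-up of the member counts differed with line and day. Mup17 gave 39.7% of the member counts in OGA-KO and 46.5% in OGA control at day 14, and 32.5% in OGA-KO against 31.7% in OGA control at day 28. In OGT control it gave 13.7% (12.9% to 14.6%, exact binomial interval) and Mup22 35.9% (34.8% to 37.1%). In OGT-KO Mup22 gave 8 of the 32 counts, 25% (11.5% to 43.4%), and Mup17 1 of 32, 3.12% (0.0791% to 16.2%). Mup17 was therefore a smaller share in both OGT libraries than in any OGA library. Mup9 gave 11.2% in OGA-KO and 19% in OGA control at day 14, 12% in OGA-KO against 6.63% in OGA control at day 28, and 0.627% in OGT control. With 0 of 32 counts, which allows a share of up to 10.9% by the exact binomial interval, its share in OGT-KO cannot be set against that of OGT control.

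**Figure D4:**
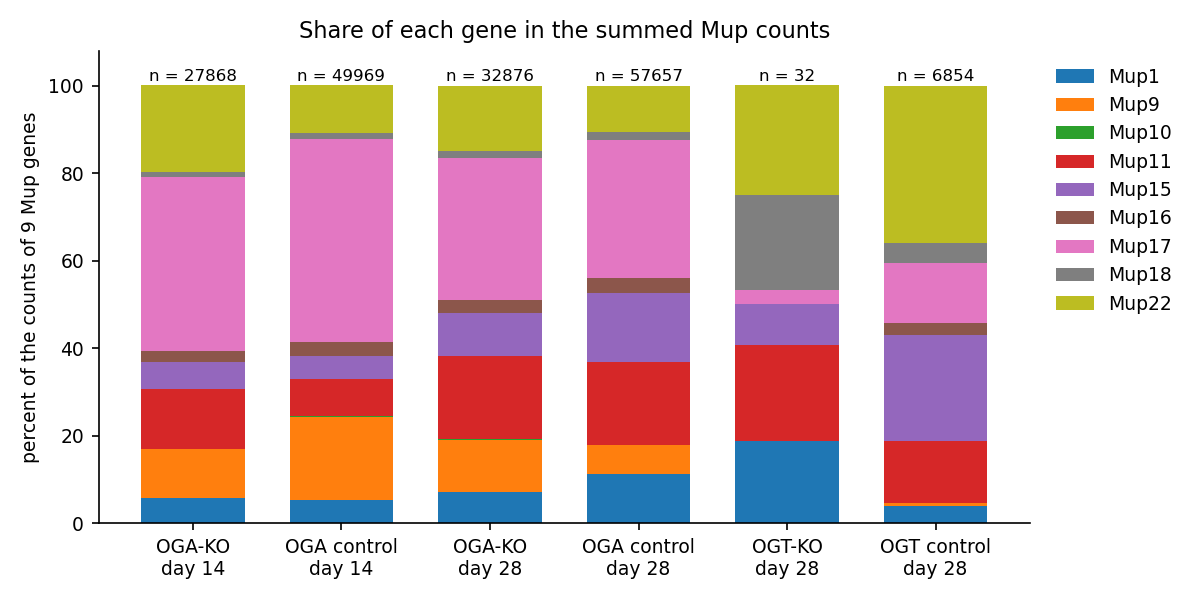
Share of each Mup gene in the summed counts of the 9 genes, in percent, for the 6 libraries, with the knockout left of its control and the summed count above each bar. Mup17 (pink) is the largest share in the 4 OGA libraries, at 31.7% to 46.5%, and Mup22 (olive) in OGT control. The OGT-KO bar rests on 32 counts, too few to rank its largest shares.

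Genes of growth hormone signalling, from the receptor to its targets, were measured in the same fit, in which 26.6% of all genes fell and 26.1% rose in OGT-KO. Of the 9 growth hormone axis genes with a row, 5 fell and 1 rose in OGT-KO, with log2 ratios between -3.92 and 0.62. Without the line term 3 fell and 0 rose, where 11.8% of all genes fell and 13.4% rose. Igfals, which encodes the acid-labile subunit that carries IGF1 in blood, was at 8.52 CPM in OGT-KO and 130 CPM in OGT control (log2 ratio -3.92, edgeR adjusted p = 8.43e-05). Ghr, the growth hormone receptor, was at 81.7 CPM in OGT-KO and 444 CPM in OGT control (log2 ratio -2.44, edgeR adjusted p = 0.000155). Bcl6, a repressor more active in male liver, had a log2 ratio of -1.14 (edgeR adjusted p = 0.00192). Cish, a feedback target of STAT5, had -1.27 but did not pass (edgeR adjusted p = 0.209), against 0.18 without the day term. It passed without the day term and either OGA-KO library (edgeR adjusted p = 0.0339 for each). In OGA-KO 0 of the 9 passed, and Ghr was at 527 CPM in OGA-KO and 528 CPM in OGA control at day 14, and 510 CPM in OGA-KO against 567 CPM in OGA control at day 28.

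Transcription factors of hepatocytes were lower in the same direction. Of 11 hepatic regulators 9 fell and 0 rose in OGT-KO, with a median log2 ratio of -0.86, where 26.6% of all genes fell and 26.1% rose. Cebpa, a factor of the mature hepatocyte, was at 157 CPM in OGT-KO and 727 CPM in OGT control (log2 ratio -2.21, edgeR adjusted p = 0.000509). Onecut1, which encodes HNF6, had a log2 ratio of -2.15 (edgeR adjusted p = 0.00706), Thrb, a thyroid hormone receptor, -1.19 (edgeR adjusted p = 0.00124), and Hnf4a -0.97 (edgeR adjusted p = 0.00154). Each differed by less than any of the members that fell. In OGA-KO 0 of the 11 passed.

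Liver genes known to differ between the sexes were compared in the same way. Of 19 male-biased genes 18 fell and 1 rose in OGT-KO, with a median log2 ratio of -3.48, where 26.6% of all genes fell and 26.1% rose. Hsd3b5, a steroid-metabolising enzyme of male liver, was at 0.43 CPM in OGT-KO and 176 CPM in OGT control, 411-fold lower (edgeR adjusted p = 0.000164). Car3, a carbonic anhydrase, was at 8.45 CPM in OGT-KO and 2543 CPM in OGT control, 301-fold lower (edgeR adjusted p = 8.35e-05). Moxd1, a monooxygenase-like gene, had 2 counts in OGT-KO and 287 in OGT control (log2 ratio -6.38, edgeR adjusted p = 0.00168), a call lost when the day term was dropped (edgeR adjusted p = 0.0605). Serpina1e, a protease inhibitor of the same list, was the 1 that rose. Without the line term 16 fell and 0 rose, where 11.8% of all genes fell and 13.4% rose. The median of this list was nearer to 0 than the -6.86 of the members, and Hsd3b5, Car3 and Moxd1 were named for their large ratios.

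Of the 19 female-biased genes 8 had a row, of which 5 rose and 2 fell in OGT-KO (median log2 ratio 1.63), where 26.1% of all genes rose and 26.6% fell. Nipal1, a magnesium transporter gene, was at 32.9 CPM in OGT-KO and 0.39 CPM in OGT control (log2 ratio 6.14, edgeR adjusted p = 0.000331). Cyp2a4, a steroid hydroxylase, was at 141 CPM in OGT-KO and 19.5 CPM in OGT control (log2 ratio 2.86, edgeR adjusted p = 0.000943). Cyp2b10, a drug-inducible enzyme, went the other way (log2 ratio -1.53, edgeR adjusted p = 0.00105), and this call was lost when the line term was dropped (edgeR adjusted p = 0.137). In OGA-KO 0 of the 8 passed, while 6 of 8 were 2-fold higher at day 28 and 0 of 8 at day 14 (1.7% and 0.534% of all genes were). For these 6 the OGA-KO difference at day 28 was the opposite of that of the Mup sum.

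Other genes of similar product or position did not share the size of the Mup difference. The counts of the main fit below stand beside 26.6% of all genes that fell and 26.1% that rose in OGT-KO. Without the line term 11.8% of all genes fell and 13.4% rose. With library totals 15.5% fell and 44.4% rose, and with DESeq2 14% fell and 10% rose. Of 9 other lipocalin genes with a row 4 fell and 2 rose in OGT-KO (median log2 ratio -0.66), and 2 fell and 0 rose without the line term. Lcn2, an iron-scavenging lipocalin of the acute phase, was at 303 CPM in OGT-KO and 23.9 CPM in OGT control (log2 ratio 3.66, edgeR adjusted p = 0.015). Its call was lost without the day term (edgeR adjusted p = 0.139), without the line term (log2 ratio 1.85, edgeR adjusted p = 0.316) and with OGT control left out (edgeR adjusted p = 0.297). It was lost too without the day term and the OGA control library of either day (edgeR adjusted p = 0.162 for each). C8g, a complement lipocalin, had a log2 ratio of -2.16 (edgeR adjusted p = 0.000168), and Orm1, the acute-phase orosomucoid, -1.89 (edgeR adjusted p = 0.000489). Of 21 secreted liver proteins 15 fell and 0 rose, with a median of -0.62, but 10 fell and 4 rose with library totals and 8 fell without the line term. The lowest was Apoa2, an apolipoprotein of HDL, at 478 CPM in OGT-KO and 4448 CPM in OGT control (log2 ratio -3.22, edgeR adjusted p = 9.51e-05). Of the 12 genes nearest to the cluster, 6 on either side, 6 rose and 3 fell, with a median of 0.33, and 2 rose and 2 fell without the line term or with DESeq2. Susd1 had a log2 ratio of 2.07 (edgeR adjusted p = 0.000896) and Hdhd3 of -1.31 (edgeR adjusted p = 0.000954), so neighbours of the cluster did not differ in 1 direction. Of the 12 clock genes 3 fell and 0 rose, a share close to that of all genes. Without the line term 1 fell, Dbp (edgeR adjusted p = 0.107) and Nr1d2 (edgeR adjusted p = 0.395) no longer passing, and Dbp did not pass with DESeq2 (adjusted p = 0.103) or without the day term (edgeR adjusted p = 0.217).

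The 5 genes outside the family whose levels over the 6 libraries were most like the Mup sum were Ces3b, Car3, Cyp4a12a, Ces3a and Clec2h. Likeness was the root mean square difference of log2 CPM, each profile centred on its mean, over 6 libraries and among 8102 genes. Ces3b, a liver carboxylesterase, was nearest at 0.58 log2 units, and Car3 was next. Ces3b had 34 counts in OGT-KO and 3050 in OGT control, 17569 in OGA-KO against 18042 in OGA control at day 14, and 17247 in OGA-KO against 17590 in OGA control at day 28. Car3 had 236 counts in OGT-KO and 58692 in OGT control. Cyp4a12a, a fatty acid hydroxylase of male liver, stood at 1.09, Ces3a, a second carboxylesterase, at 1.13 and Clec2h, a C-type lectin gene, at 1.15. The likeness rests on the OGT-KO library, in which all 5 were lowest, and in the OGA libraries Ces3b did not share the difference of the Mup sum between OGA-KO and OGA control.

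**Figure D5:**
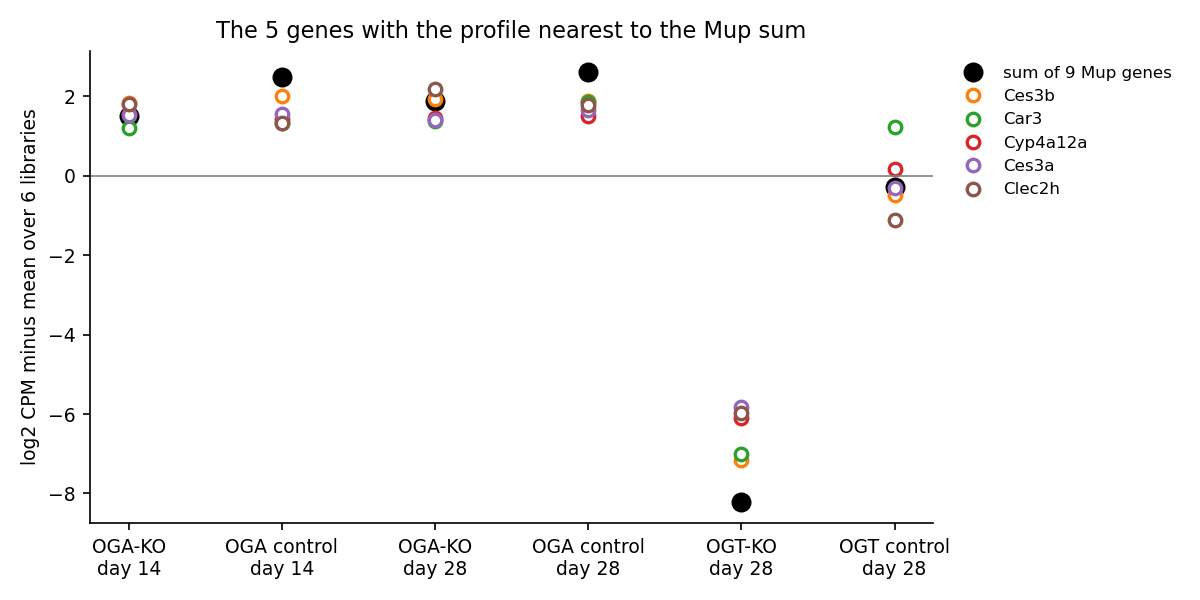
Log2 CPM minus the mean over the 6 libraries for the sum of the 9 Mup genes (black) and the 5 genes nearest to it (open circles), with the knockout left of its control. All 6 profiles were lowest in OGT-KO, and the Mup sum reached -8.21 there against -0.28 in OGT control.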

How the data were processed

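Liver messenger RNA was sequenced in 6 libraries, 1 per group. The authors deposited raw counts per Ensembl gene, both lanes in 1 column, and CPM, which per the values is the count over a library total. Per the submitters' processing notes, STAR, Subread, edgeR and the build mm39 were used, without versions or settings. Symbols matched 12019 of 12027 identifiers. Every row held at least 28 counts over the OGA libraries, while 56 rows held 0 in both OGT libraries, so genes expressed mainly in OGT livers had less chance of a row.

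From the counts, edgeR 4.0.16 (R 4.3.3; TMM, filterByExpr) fitted line, day, OGA-KO and OGT-KO over all 6 libraries. DESeq2 1.42.0 was an alternative. Log2 ratios of 2 libraries used a prior count of 2, and folds none, with exact Clopper-Pearson intervals. Because PCR copies cannot be told from separate molecules here, those intervals and the floor of 3 counts cover counting error alone. The procedure was tried on simulated data with a fixed spread and no difference between lines or days, unlike these data, so it gives no error rate for them. Members, lists and tests were chosen with earlier results of these data known. Named were all members, up to 4 genes of each list with the largest OGT-KO ratios at 10 CPM or more, the 5 genes of nearest profile, Oga and Ogt. Mup3, Mup6, Mup20, Mup21, Serpina1e and Alb were named after their values were seen. Coding sequences came from GENCODE M21 (GRCm38) and promoters from RefSeq (GRCm38.p6), neither of the authors' build, and served for sequence only.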

Additional observations from a re-analysis of the deposited data

Results flagged for a closer look

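For 7 members the OGT-KO effect differed from the OGA-KO effect in the tested contrast of both (edgeR's quasi-likelihood test with Benjamini-Hochberg adjustment). The log2 value of the OGT-KO effect minus the OGA-KO effect was -4.59 for Mup1 (edgeR adjusted p = 0.00202), -6.85 for Mup11 (edgeR adjusted p = 0.000377) and -8.23 for Mup15 (edgeR adjusted p = 0.000562). It was -9.65 for Mup16 (edgeR adjusted p = 0.00115), -9.02 for Mup17 (edgeR adjusted p = 0.000476), -4.56 for Mup18 (edgeR adjusted p = 0.00165) and -8.35 for Mup22 (edgeR adjusted p = 0.000159). All 7 were lower in OGT-KO than in its control and lower in OGA-KO than in its control at both days. Of these, Mup16 was at 0 in OGT-KO and Mup17 at 1 count, so their sizes depend on the prior count.

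Mup9 was lower in OGA-KO at day 14 (log2 ratio -1.75) and higher at day 28 (log2 ratio 0.13). This difference between days was not tested, since each group is 1 library.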

How the results depend on the processing

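With 1 OGA library left out the day term cannot be fitted, so each such value below also lacks that term. The 7 calls in OGT-KO ranged from 5 without the line term to 9 with the OGT control left out, where OGT-KO is set against the OGA controls, and were 8 with DESeq2, 7 without the day term, and 8 without the day term and any 1 OGA library (chosen after seeing the data). In OGA-KO the count of 0 became 5 with DESeq2 and stayed 0 without the day term, and ranged from 0 to 3 without that term and 1 OGA library, with 3 without OGA-KO of day 14 and 2 without OGA-KO of day 28. In the contrast it was 4 without the line term. The cause was not tested. Of all genes, 26.6% fell in OGT-KO in the main fit, 11.8% without the line term and 14% with DESeq2. It was 25.4% without the day term, 23.8% to 27% with any 1 OGA library left out and 32% with OGT control left out. In OGA-KO 0.00832% were lower in the main fit, 0.665% without OGA-KO of day 14 and 0.0333% without OGA-KO of day 28. In the contrast 11.4% were lower without the line term. Mup9 gained a call in OGT-KO with DESeq2 (adjusted p = 0.00464).

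The summed log2 ratio moved when all 20 Mup rows were summed, to -3.59 in OGT-KO, -0.32 and -0.67 in OGA-KO at day 14 and day 28, 0.39 for OGA control and 0.04 for OGA-KO between days, and -2.94 for OGT control against OGA control. Without Mup17 it was -0.81 in OGA-KO at day 14, 0.46 and 0.53 between days in OGA control and OGA-KO, and -2.55 between the controls. With library totals in place of TMM it was 0.08 and 0.33 between days and -2.67 between the controls.

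Among single genes 14 values reversed. In OGA-KO without the line term Mup9 stood at 0.02, Mup10 at 0.33, Mup22 at 0.09 and Mup21 at 0.06. Without the day term and OGA control of day 28, Mup11 stood at 0.19, Mup12 at 0.19, Mup14 at 0.28, Mup19 at 0.20 and Mup21 at 0.00. Without the day term and OGA control of day 14, Mup10 stood at 0.25 and Mup20 at -0.40, and without the day term and OGA-KO of day 28 Mup20 stood at -0.39. In the contrast Mup10 stood at -8.54 without the line term and at -0.25 without the day term and OGA control of day 14. The other single values kept their direction (894 also their side of the threshold, 30 passed it newly and 43 no longer did).

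No paired analysis was possible because each group is 1 library and the labels carry no replicate numbers. Sharing of reads among copies, the row filter and 1 library per group limit every single-gene value, and member counts of 8 or fewer in OGT-KO limit folds to wide intervals.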
